A study of Mus musculus with 8 samples.

Results

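The 9 genes described here encode surface proteins of myeloid cells. These are Pilra, Pilrb1 and Pilrb2 of the PILR family, the Siglecs Cd33 and Siglece, Sirpa, Cd300a, Cd300lf and Tmem154. They were picked by symbol from the 13744 genes of the table, because Pilra, the Pilrb genes and Cd33 had been seen to differ from wild type in opposite directions in Bcl6 cKO and Irf2 KO monocytes, so their values in those comparisons chose them and are given below as a description without a test. All 9 were among the 12752 genes that entered the fits, those whose mean reached 1 CPM (reads scaled to a fixed library total). As a name for the set, paired receptors is approximate: Sirpa belongs to the SIRP family, and Tmem154 encodes a small transmembrane protein that belongs to none of these families. Below, the 9 are called receptors for short, with no receptor role of Tmem154 meant.

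RNA was sequenced from classical monocytes (Ly6C-high) out of mouse bone marrow, with 2 libraries of each of 4 genotypes: a conditional knockout of Bcl6 (Bcl6 cKO), knockouts of Irf2 and of Nr4a1, and wild type. The labels give no treatment. Bcl6 encodes a transcriptional repressor, Irf2 an interferon regulatory factor, and Nr4a1 a nuclear receptor needed for Ly6C-low monocytes. The sources used here do not give the age, sex or strain of the mice, the Cre driver of the Bcl6 deletion, the deleted exons, or whether a genotype's libraries stem from separate mice, so p-values measure only the spread between these libraries.

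Each library held 46617756 to 62633123 reads assigned to genes, and 1 CPM stood for 47.9 to 61.8 reads. The lowest member value, Cd33 in Irf2 KO library 1, still rested on 156 reads. Of the targeted genes, Nr4a1 was at 2.32 and 2.98 log2 CPM in Nr4a1 KO libraries and 4.64 and 5.29 in wild type. Nr4a1 was about as low in Irf2 KO libraries, at 2.59 and 2.52 log2 CPM. Irf2 was at 6.50 and 6.69 log2 CPM in Irf2 KO libraries and 7.18 and 7.14 in wild type. The libraries labelled Bcl6 cKO held more Bcl6 reads than wild type, with Bcl6 at 6.53 and 6.40 log2 CPM, while the wild type libraries had 4.66 and 4.64. Reads summed over a whole gene do not show whether a single exon is missing, so these levels do not check the Bcl6 and Irf2 labels, and each direction given for Bcl6 cKO rests on that label.

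Paired receptors are closely related surface proteins of which one member inhibits and another activates the cell. The inhibitory members carry tyrosine motifs (ITIMs) that recruit the phosphatases SHP-1 and SHP-2, while the activating members have short tails and signal through adaptors such as DAP12, which engage the kinase SYK. On monocytes and neutrophils such receptors set how readily the cell responds to adhesion, to microbial signals and to its neighbours. Pilra encodes the inhibitory receptor PILR-alpha, and Pilrb1 and Pilrb2 encode activating PILR-beta receptors. PILR-alpha binds sialylated O-glycoproteins. CD33 and Siglec-E are sialic acid-binding lectins, SIRP-alpha is the inhibitory receptor for CD47, and CD300a and CD300f (encoded by Cd300lf) are inhibitory receptors that bind membrane lipids exposed on dying cells.

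The 3 PILR genes lie side by side on chromosome 5 on the minus strand of GRCm38: Pilra (ENSMUSG00000046245) from 137821952 to 137836281, Pilrb1 (ENSMUSG00000066684) from 137852147 to 137858106 and Pilrb2 (ENSMUSG00000066682) from 137865827 to 137871815. Pilra and Pilrb1 are 15865 bases apart, and Pilrb1 and Pilrb2 are 7720 bases apart. The stretch before their transcription starts is nearly the same sequence in all 3 genes, which is why it is printed here, beside that of Cd33 for contrast. The RefSeq start of Cd33 lies inside the extent of the gene in GENCODE. So do those of the PILR genes, by far fewer bases. Each window runs from 250 bases before to 50 bases after the RefSeq start (GRCm38.p6, minus strand, 5′ to 3′), and capitals mark GAAA followed after any 2 bases by another GAAA, a repeat of the kind that interferon regulatory factors bind.
Pilra, chr5:137836229-137836528: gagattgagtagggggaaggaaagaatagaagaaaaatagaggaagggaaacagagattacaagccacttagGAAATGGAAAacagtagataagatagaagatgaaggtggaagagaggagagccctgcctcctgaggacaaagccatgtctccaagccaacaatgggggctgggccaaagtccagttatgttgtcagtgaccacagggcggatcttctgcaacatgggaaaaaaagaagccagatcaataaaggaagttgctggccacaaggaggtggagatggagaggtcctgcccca
Pilrb1, chr5:137858000-137858299: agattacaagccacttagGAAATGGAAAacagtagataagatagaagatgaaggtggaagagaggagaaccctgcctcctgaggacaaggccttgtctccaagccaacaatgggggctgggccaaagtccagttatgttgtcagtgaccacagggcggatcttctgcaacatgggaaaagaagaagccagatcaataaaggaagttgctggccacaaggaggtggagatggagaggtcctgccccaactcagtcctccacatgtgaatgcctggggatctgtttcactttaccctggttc
Pilrb2, chr5:137871709-137872008: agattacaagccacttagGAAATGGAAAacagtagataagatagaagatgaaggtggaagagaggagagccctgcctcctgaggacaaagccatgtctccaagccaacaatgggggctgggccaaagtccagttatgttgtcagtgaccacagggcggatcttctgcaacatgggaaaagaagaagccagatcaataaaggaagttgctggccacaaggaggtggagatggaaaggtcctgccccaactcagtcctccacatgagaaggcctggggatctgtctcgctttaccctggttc
Cd33, chr7:43533122-43533421: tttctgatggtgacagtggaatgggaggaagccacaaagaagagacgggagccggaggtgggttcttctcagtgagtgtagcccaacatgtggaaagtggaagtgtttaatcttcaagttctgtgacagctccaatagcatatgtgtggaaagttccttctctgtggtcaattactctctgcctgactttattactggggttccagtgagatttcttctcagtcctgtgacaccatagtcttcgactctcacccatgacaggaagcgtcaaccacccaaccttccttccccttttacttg

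Aligned end to end, the Pilra window matched that of Pilrb1 at 242 of 246 aligned bases and that of Pilrb2 at 244 of 246. The Pilrb1 and Pilrb2 windows were identical at 292 of 300 bases. RefSeq windows were found for 8 of the 9 genes, all but Sirpa. This spaced GAAA pair, searched on both strands, occurred in 3 of the 8 windows, those of Pilra, Pilrb1 and Pilrb2, and in 3.443% of all 32851 promoter windows of that length. Since the 3 windows are near copies, they count as a single instance of the motif rather than as separate ones. The match began at position -178 from the RefSeq start in Pilra and at -232 in Pilrb1 and Pilrb2. These positions depend on where RefSeq places each start. In Pilrb1 and Pilrb2 that start lies further inside the GENCODE extent of the gene than in Pilra. The unlike positions therefore do not show that the motif is placed differently. The letters TTCNNNGAA, a core bound by BCL6 and STAT factors, occurred in 0 of 8 windows and in 8.298% of all windows. The NR4A response element AAAGGTCA occurred in 0 of 8 windows and in 1.507% of all windows. The PU.1 core GAGGAAGT occurred in 1 of 8 windows, that of Cd300lf, and in 3.202% of all windows. No 2 of these matches overlapped. A match is a description of letters in a window, and no binding was measured.

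The PILR genes were the members with the largest positive differences in Bcl6 cKO. Pilra, the inhibitory receptor, was at 7.71 and 7.75 log2 CPM in Bcl6 cKO, 5.59 and 5.45 in Irf2 KO, 6.48 and 6.21 in Nr4a1 KO, and 6.19 and 5.91 in wild type. Both Bcl6 cKO libraries lay above, and both Irf2 KO libraries below, those of the other genotypes. Relative to wild type Pilra was 1.68 ± 0.13 log2 units higher in Bcl6 cKO (SE, 3.21-fold) and 0.53 ± 0.13 log2 units lower in Irf2 KO (1.44-fold).

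Pilrb1, an activating receptor, was at 6.45 and 6.47 log2 CPM in Bcl6 cKO, 4.47 and 3.90 in Irf2 KO, 5.37 and 5.11 in Nr4a1 KO, and 4.85 and 5.06 in wild type. Pilrb2, its close copy, was at 6.01 and 5.99 log2 CPM in Bcl6 cKO, 3.91 and 3.91 in Irf2 KO, 5.40 and 4.89 in Nr4a1 KO, and 4.82 and 4.80 in wild type. Both genes had the order of Pilra, with Bcl6 cKO libraries on top and Irf2 KO libraries at the bottom. The difference from wild type in Bcl6 cKO was 1.50 ± 0.19 log2 units (2.83-fold) for Pilrb1 and 1.19 ± 0.17 (2.28-fold) for Pilrb2. In Irf2 KO, Pilrb1 was 0.77 ± 0.19 log2 units lower (1.71-fold) and Pilrb2 0.90 ± 0.17 lower (1.86-fold). The Pilrb1 difference in Irf2 KO was -0.49 without Irf2 KO library 2 and -1.05 without Irf2 KO library 1, so its size depended on the library kept.

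**Figure D1:**
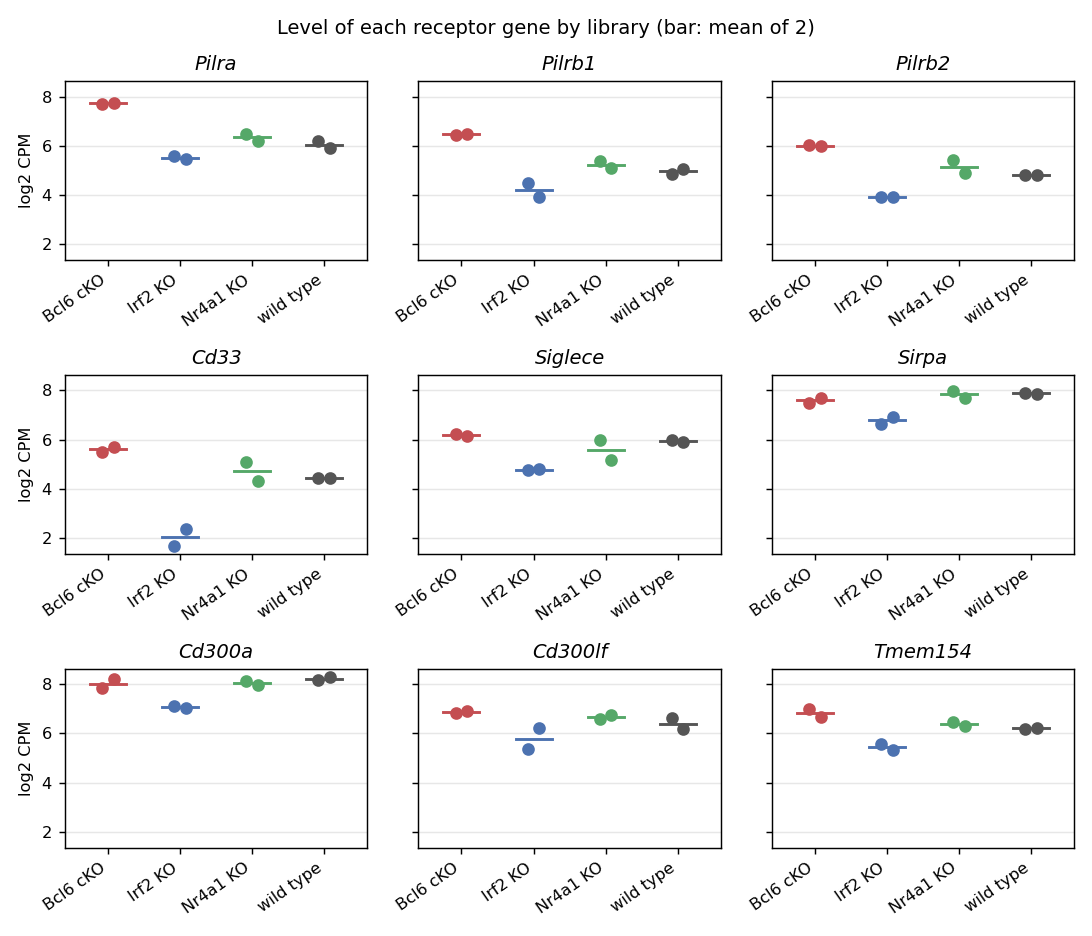
Level of each of the 9 receptor genes in log2 CPM (vertical axes) by genotype, with 1 point per library and a bar at the mean of the 2 libraries. For Pilra, Pilrb1, Pilrb2 and Cd33 both Bcl6 cKO points lie above, and both Irf2 KO points below, those of Nr4a1 KO and wild type.

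Inhibitory and activating PILR transcripts differed from wild type in the same direction. The log2 ratio of Pilra to the sum of Pilrb1 and Pilrb2, which is not corrected for length and serves only to compare libraries, was 0.46 and 0.50 in Bcl6 cKO, 0.37 and 0.54 in Irf2 KO, 0.10 and 0.21 in Nr4a1 KO, and 0.35 and -0.03 in wild type. The ratio in both Bcl6 cKO and both Irf2 KO libraries was above the wild type values, but on average by less than the wild type libraries differed from each other. These 3 genes share exonic sequence: 26.0% of the distinct 50-base stretches in Pilrb1 transcripts also occur in Pilrb2, whose coding sequence is 93.5% identical. Of Pilra transcripts 20.8% of such stretches occur in another gene, mostly in Zcwpw1, which overlaps Pilra on the opposite strand. How the authors counted reads that match several genes, and whether strand was used, is not stated in the sources, so the split of reads among the PILR genes, and between Pilra and Zcwpw1, is uncertain. Zcwpw1 itself differed by -0.09 ± 0.20 log2 units from wild type in Bcl6 cKO, at a mean of 3.10 log2 CPM over the 8 libraries, below Pilra in every library.

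The neighbours of the PILR genes did not share their differences in Bcl6 cKO. Within 100 kb, 4 other genes were tested. In Bcl6 cKO, 0 of them were called higher and 1 lower, Tsc22d4, at -0.92 ± 0.18 log2 units (limma, adjusted p = 0.0259). In Irf2 KO, Tsc22d4 (-0.91 ± 0.18, adjusted p = 0.0110) and Zcwpw1 (-1.10 ± 0.20, adjusted p = 0.00741) were lower. Ppp1r35 and Mepce passed the threshold in no comparison. Tsc22d4 was also lower in Nr4a1 KO, where no PILR gene passed the test (-1.48 ± 0.18, adjusted p = 8.4e-04).

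**Figure D2:**
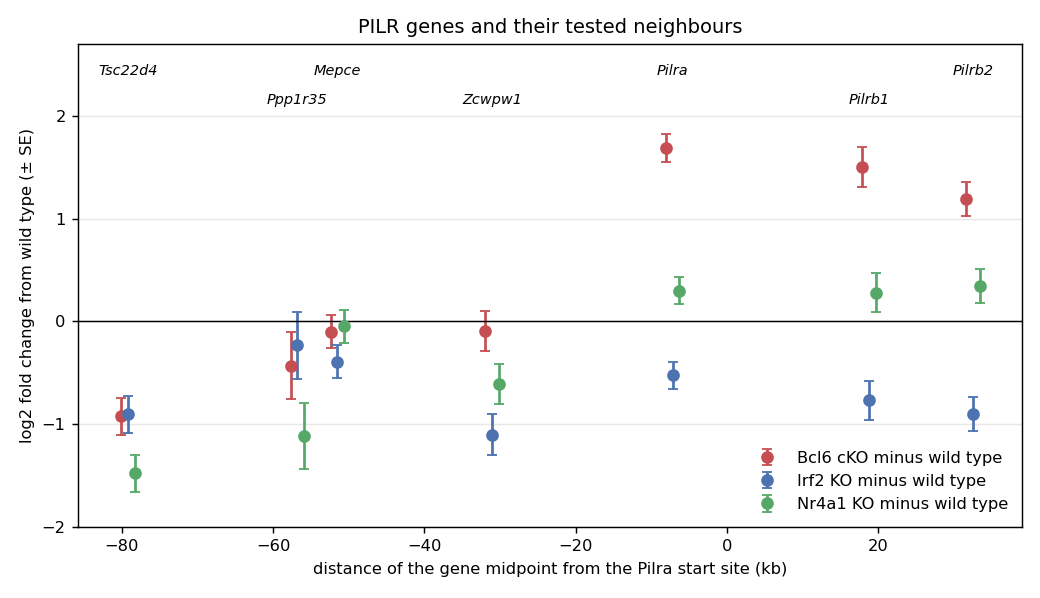
Log2 difference from wild type (vertical axis, ± SE) of the tested genes around the PILR genes, by the distance of each gene's midpoint from the Pilra start in kb (horizontal axis), for the 3 knockouts. The 3 PILR genes stand at 1.19 to 1.68 in Bcl6 cKO, while the 4 neighbouring genes lie between -0.92 and -0.09.

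Of the Siglecs, Cd33 had the largest difference of all members in Irf2 KO. The mouse protein binds sialic acid but lacks the classical inhibitory tail of human CD33. Cd33 (ENSMUSG00000004609, chromosome 7, 43524216 to 43544428, minus strand) was at 5.50 and 5.71 log2 CPM in Bcl6 cKO, 1.69 and 2.35 in Irf2 KO, 5.08 and 4.33 in Nr4a1 KO, and 4.43 and 4.43 in wild type. This corresponded to 156 and 278 reads in Irf2 KO libraries and 1247 and 1102 reads in wild type. The difference from wild type was 1.18 ± 0.28 log2 units in Bcl6 cKO (2.26-fold) and -2.40 ± 0.28 in Irf2 KO (5.30-fold lower). The Nr4a1 KO libraries spanned the wild type level.

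Siglece (ENSMUSG00000030474, 43651070 to 43660161), the inhibitory Siglec of mouse myeloid cells, lies 106641 bases from Cd33 on the same strand and was at 6.24 and 6.15 log2 CPM in Bcl6 cKO, 4.75 and 4.79 in Irf2 KO, 5.99 and 5.15 in Nr4a1 KO, and 5.96 and 5.90 in wild type. Its difference was 0.26 ± 0.23 log2 units in Bcl6 cKO and -1.16 ± 0.23 in Irf2 KO (2.24-fold lower). So the Irf2 KO libraries were the lowest for both Siglecs, while in Bcl6 cKO the Siglece difference was about the size of its SE. Of the 6 other tested genes within 100 kb of Cd33, Nkg7, a granule membrane protein of cytotoxic cells, was higher in all 3 knockouts (by 1.13 log2 units in Bcl6 cKO, 0.89 in Irf2 KO, 0.81 in Nr4a1 KO), and the zinc finger gene Zfp658 and Vsig10l were lower in Irf2 KO. The 3 Nkg7 calls were each lost without wild type library 1 and without several other single libraries, and that in Nr4a1 KO was not in the authors' deposited table.

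Sirpa and Cd300a did not share the higher levels in Bcl6 cKO. Sirpa (ENSMUSG00000037902, chromosome 2, 129592835 to 129632228, plus strand) was at 7.48 and 7.71 log2 CPM in Bcl6 cKO, 6.65 and 6.90 in Irf2 KO, 7.99 and 7.71 in Nr4a1 KO, and 7.90 and 7.86 in wild type. Cd300a (ENSMUSG00000034652, chromosome 11, 114890041 to 114904654, plus strand) was at 7.85 and 8.19 log2 CPM in Bcl6 cKO, 7.11 and 7.01 in Irf2 KO, 8.12 and 7.95 in Nr4a1 KO, and 8.16 and 8.30 in wild type. For both genes the Irf2 KO libraries were the lowest, and for Cd300a the Bcl6 cKO and wild type libraries overlapped. Sirpa differed by -0.28 ± 0.13 log2 units in Bcl6 cKO (-0.08 once GC content and transcript length were corrected for) and by -1.10 ± 0.13 in Irf2 KO. Cd300a differed by -0.21 ± 0.13 in Bcl6 cKO and by -1.17 ± 0.13 in Irf2 KO. The Cd300a difference in Bcl6 cKO was -0.03 without Bcl6 cKO library 1 and -0.38 without Bcl6 cKO library 2.

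Cd300lf (ENSMUSG00000047798, chromosome 11, 115116214 to 115133992, minus strand), at 211559 bases from Cd300a, was the member whose libraries of 1 genotype lay furthest apart, those of Irf2 KO. It was at 6.84 and 6.91 log2 CPM in Bcl6 cKO, 5.35 and 6.23 in Irf2 KO, 6.58 and 6.73 in Nr4a1 KO, and 6.60 and 6.17 in wild type. The Irf2 KO and wild type libraries overlapped. Its difference was 0.49 ± 0.25 log2 units in Bcl6 cKO, or 0.27 without wild type library 2, and -0.60 ± 0.25 in Irf2 KO. The Irf2 KO value was -0.16 without Irf2 KO library 1 and -1.03 without Irf2 KO library 2.

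Tmem154 (ENSMUSG00000056498, chromosome 3, 84666192 to 84704575, plus strand) was at 7.00 and 6.69 log2 CPM in Bcl6 cKO, 5.56 and 5.31 in Irf2 KO, 6.46 and 6.28 in Nr4a1 KO, and 6.19 and 6.21 in wild type. The order of genotypes was the same as for the PILR genes, with a smaller difference in Bcl6 cKO, 0.64 ± 0.14 log2 units (1.56-fold), and one of -0.76 ± 0.14 in Irf2 KO (1.70-fold lower). The Bcl6 cKO difference was 0.48 without Bcl6 cKO library 1 and 0.80 without Bcl6 cKO library 2.

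As a description of the set, 5 of 9 members passed the threshold as higher in Bcl6 cKO (the PILR genes, Cd33 and Tmem154) and 0 as lower, where 1.36% of all tested genes were called higher and 3.65% lower. In Irf2 KO, 8 of 9 were called lower (all but Cd300lf) and 0 higher, where 12.3% of all tested genes were called lower and 9.26% higher. Without overlap of libraries, 7 members were above wild type in Bcl6 cKO (26.8% of all tested genes) and 1, Sirpa, below (28.4%), and 0 were above (30.1%) and 8 below (35.8%) in Irf2 KO. The Bcl6 cKO count was 1 without Bcl6 cKO library 1, 2 without Bcl6 cKO library 2 and 3 when either wild type library was left out. It was also 3 without the variance trend in limma (Cd33 and Tmem154 not called). The Irf2 KO count was 5 without Irf2 KO library 2. These counts are set by the choice of members and nothing is read from them. The median difference over the 9 genes was 0.64 log2 units in Bcl6 cKO (-0.01 over all tested genes) and -0.90 in Irf2 KO (-0.04 over all tested genes). In sum the 9 genes made up 1135 and 1216 CPM in Bcl6 cKO, 443 and 470 CPM in Irf2 KO, 987 and 835 CPM in Nr4a1 KO, and 909 and 895 CPM in wild type.

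**Figure D3:**
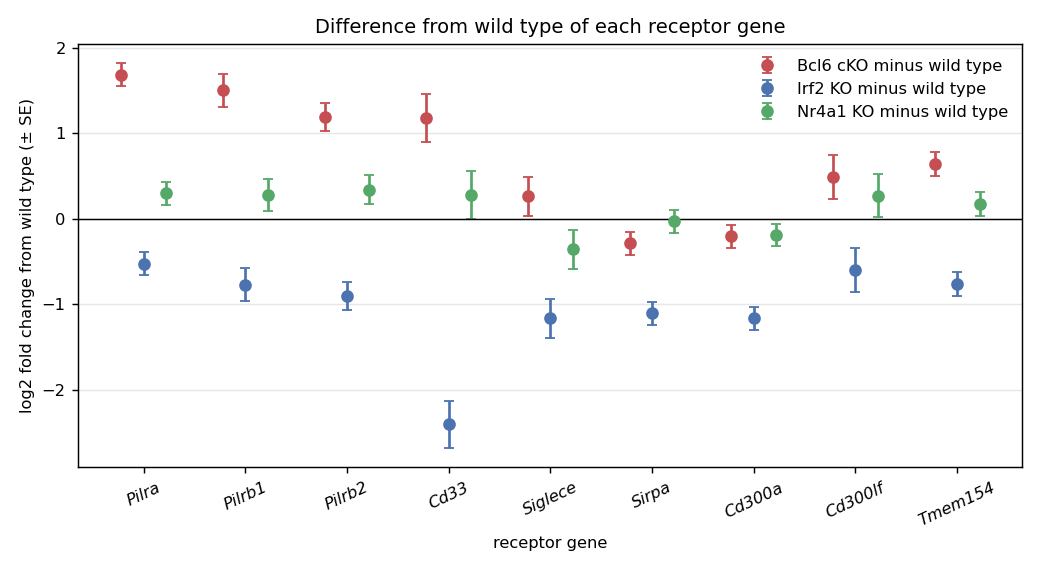
Log2 difference from wild type (vertical axis, points with SE) of the 9 receptor genes (horizontal axis) in Bcl6 cKO, Irf2 KO and Nr4a1 KO. Pilra, Pilrb1, Pilrb2, Cd33 and Tmem154 lie at 0.64 to 1.68 in Bcl6 cKO, all 9 genes lie at -0.53 to -2.40 in Irf2 KO, and all lie between -0.36 and 0.34 in Nr4a1 KO.

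Scaled by exonic length, which allows levels of different genes to be compared, the most abundant member in wild type was Cd300a at a mean of 5.98 log2 CPM per kb, followed by Sirpa at 5.58, Siglece at 5.04 and Pilra at 4.42. The wild type values of Cd300lf, 4.24 and 3.80, enclosed those of Pilrb1, Tmem154 and Pilrb2, so these genes cannot be ordered relative to Cd300lf. Cd33, whose annotated exons sum to 7771 bases, was last in every genotype, at 2.65 log2 CPM per kb in Bcl6 cKO, -0.94 in Irf2 KO, 1.75 in Nr4a1 KO and 1.47 in wild type. Pilra ranked 1 of 9 in Bcl6 cKO, at 6.08 and 6.12 log2 CPM per kb, above Cd300a at 5.61 and 5.95, and ranked 4 in wild type. Pilra and Siglece could not be ordered in Irf2 KO, with means of 3.89 and 3.88 log2 CPM per kb, or in Nr4a1 KO, where the Siglece libraries enclosed those of Pilra.

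The Nr4a1 KO, which the choice of members did not use, gave the comparison in which the receptors could be tested. It shares its wild type libraries with the other comparisons. Of the 9 members, 0 passed the threshold in Nr4a1 KO against wild type (limma on log2 CPM with Benjamini-Hochberg adjustment over 12752 genes), while 15.1% of all tested genes did (3.94% higher and 11.2% lower). None reached an unadjusted p of 0.05, and 0 were called by limma-voom on the recovered reads or in the authors' deposited table. Their median difference was 0.27 log2 units, beside 0.01 over all tested genes. Adjusted p ran from 0.172 for Pilra to 0.903 for Sirpa. Pilra was 0.30 ± 0.13 log2 units higher in Nr4a1 KO (95% interval -0.01 to 0.61), Pilrb1 0.28 ± 0.19 higher (-0.16 to 0.71, adjusted p = 0.368) and Pilrb2 0.34 ± 0.17 higher (-0.04 to 0.72, adjusted p = 0.207). These intervals leave out differences as large as those in Bcl6 cKO but do not show that the levels are alike.

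Cd33 differed by 0.28 ± 0.28 log2 units in Nr4a1 KO (95% interval -0.35 to 0.91, adjusted p = 0.546), Siglece by -0.36 ± 0.23 (-0.87 to 0.16, adjusted p = 0.329) and Sirpa by -0.03 ± 0.13 (-0.34 to 0.28). Differences were -0.19 ± 0.13 for Cd300a, 0.27 ± 0.25 for Cd300lf and 0.17 ± 0.14 for Tmem154. The 2 Nr4a1 KO libraries were further apart than the wild type pair for every member but Pilra and Cd300lf, with library 1 the higher. Without Nr4a1 KO library 2 Pilrb2 was called higher (0.59, adjusted p = 0.0301), and without Nr4a1 KO library 1 Siglece was called lower (-0.78, adjusted p = 0.00630). Without overlap between the groups, 4 members were higher (Pilra, Pilrb1, Pilrb2 and Tmem154) and 1 lower (Cd300a), while 27.9% of all tested genes were so higher and 28.9% so lower.

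Over the 8 libraries, which share their 4 genotypes, the level of Pilra correlated with that of Pilrb1 at a Pearson r of 0.973 and with Pilrb2 at 0.953, but with Sirpa at 0.413 and Cd300a at 0.512. Among protein-coding genes outside the set, those most like Pilra were Nrg4 (r = 0.978), Hmgxb3, Ahctf1, Bcl6 and Dennd1b (0.961 to 0.969). Bcl6 is thus among them, with its own level higher in Bcl6 cKO and 1.07 log2 units lower in Irf2 KO. Those most like Pilrb1 were Samsn1 (0.982), Rbpms, Irf2bp2, Bnip3l and Arl2bp. Those most like Cd33 were Dynlt1c (0.986), 1700037C18Rik, Tbrg1, Itgam and Il17ra, of which Itgam encodes the integrin alpha chain CD11b. With 4 genotypes behind 8 points, these values describe the libraries and are given without a p.

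Among relatives of the members outside the set, 11 genes were lower in Irf2 KO. The list held other Siglecs, CD300 genes, SIRP-beta genes, LILR, PIR and LAIR genes, and TREM and CD200R genes, of which 22 were tested. In Irf2 KO, these 11 of 22 were called lower and 1 higher, where 12.3% of all genes were lower and 9.26% higher. Their median difference was -0.98 log2 units, beside -0.04 over all tested genes. In Bcl6 cKO, 0 of 22 passed the threshold in limma, while 5.01% of all genes did. The median difference of the 22 was -0.42 log2 units there, beside -0.01 over all tested genes, and 19 were below wild type. In limma 12 were under an unadjusted p of 0.05, with no share of all genes at hand to set beside them. Of the 22, limma-voom called 1 and 3 passed in the authors' deposited table, all lower. In Nr4a1 KO, 2 were higher and 1 lower of 22, while 15.1% of all genes were called. Whether the knockouts differ in these counts was not tested.

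All 4 other tested CD300 genes were lower in Irf2 KO. Cd300ld was at 1.85 and 2.62 log2 CPM in Irf2 KO and 4.37 and 4.05 in wild type, a difference of -1.98 ± 0.29 (limma, adjusted p = 0.00387). Cd300c2 differed by -1.78 ± 0.30, the DAP12-coupled receptor gene Cd300lb by -1.17 ± 0.15 and Cd300lg by -0.59 ± 0.12. The call of Cd300lg was lost without Irf2 KO library 2 or wild type library 2. Cd300ld, Cd300c2 and Cd300lb are also the 3 tested genes within 100 kb of Cd300a. In Bcl6 cKO the same 4 genes differed by -0.27 to -1.11 and passed no threshold, as in Nr4a1 KO (-0.13 to 0.58).

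Leukocyte immunoglobulin-like receptors went the same way in Irf2 KO with 1 exception. Lilra6 (-2.45 ± 0.27, adjusted p = 0.00153) and the activating receptor gene Pira2 (-1.42 ± 0.14) were lower, as were Lilrb4a, Lilr4b and the inhibitory Pirb. Lair1, an inhibitory collagen receptor, was at 7.09 and 7.60 log2 CPM in Irf2 KO and 4.90 and 5.04 in wild type, 2.37 ± 0.23 log2 units higher (adjusted p = 0.00115). Siglecg, an inhibitory Siglec best known from B cells, was lower in Irf2 KO (-2.21 ± 0.31, adjusted p = 0.00315). Of the B cell markers, 2 of 3 tested were lower in Irf2 KO too. Summed over the list they made up 34 to 38 CPM in Bcl6 cKO, 36 to 43 CPM in Irf2 KO, 42 to 46 CPM in Nr4a1 KO and 70 to 74 CPM in wild type. The Irf2 KO sum was mostly Cd79b (-0.42 ± 0.15, not called), while Cd79a was at -0.03 and -1.28 log2 CPM in Irf2 KO and 3.22 and 3.30 in wild type, and Vpreb3 at -2.21 and -4.45 in Irf2 KO and 2.57 and 2.46 in wild type. Their part in the Siglecg result was not tested.

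The relatives called higher in Nr4a1 KO were 2 of the 3 activating SIRP-beta genes, relatives of Sirpa. Sirpb1c was at 7.55 and 6.93 log2 CPM in Nr4a1 KO and 5.87 and 6.01 in wild type (1.30 ± 0.25, adjusted p = 0.00993), and the call was lost without wild type library 1. Sirpb1b was 0.85 ± 0.23 higher (adjusted p = 0.0428), a call lost without any single Bcl6 cKO, Nr4a1 KO or wild type library. Sirpa itself differed by -0.03 in the same libraries. The SIRP-beta genes are near copies of each other, so how their reads were divided is uncertain. Treml4, a receptor of Ly6C-low monocytes, was lower in Nr4a1 KO (-0.92 ± 0.23, adjusted p = 0.0286, lost without any single Nr4a1 KO or wild type library) and in Irf2 KO (-2.24 ± 0.23, adjusted p = 0.00135).

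**Figure D4:**
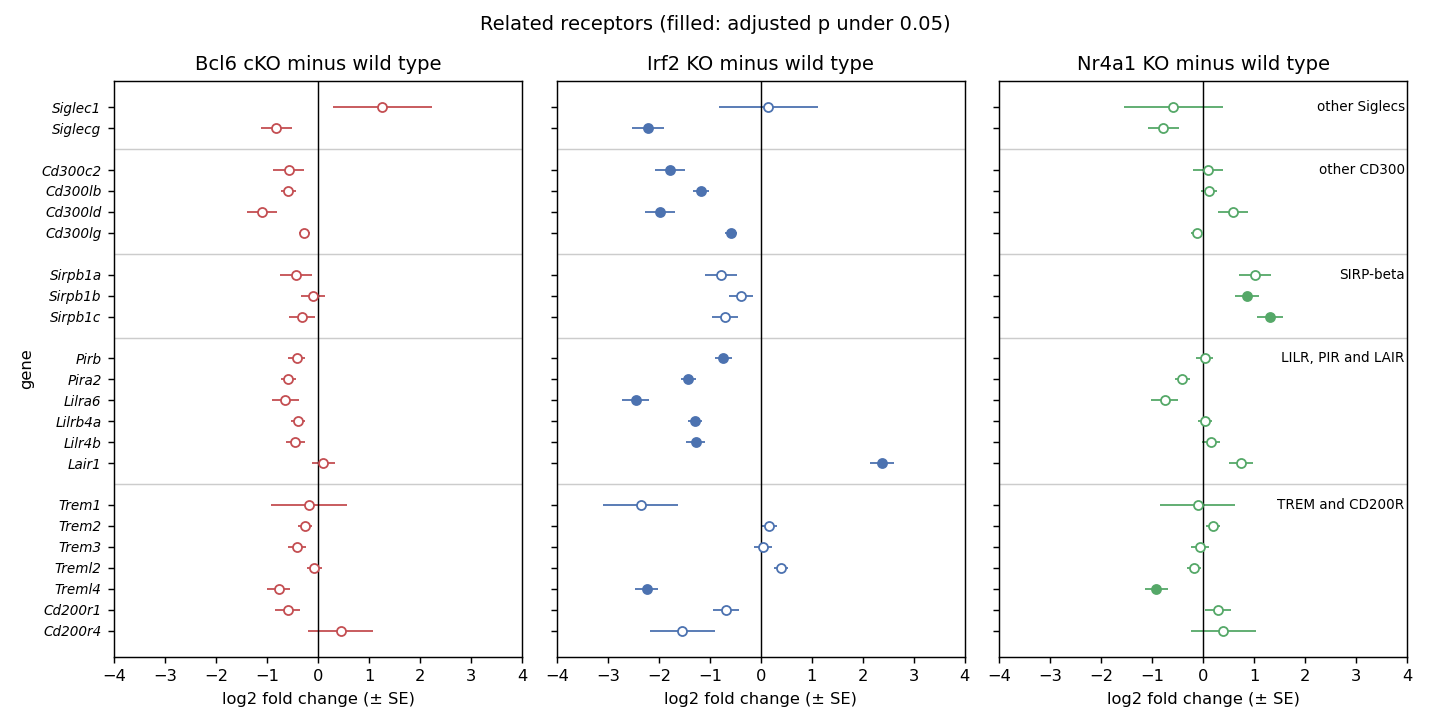
Log2 difference from wild type (horizontal axis, with SE) of tested relatives of the 9 receptors in the 3 knockouts, where filled points passed the limma threshold. The CD300 and most LILR and PIR genes lie left of 0 in Irf2 KO, Lair1 stands at 2.37, and the Sirpb1 genes lie right of 0 in Nr4a1 KO.

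Of the adaptors and kinases that activating receptors use, 8 of 15 tested were lower in Irf2 KO and 0 higher (4 lower without Irf2 KO library 1), including Tyrobp, which encodes DAP12 (-0.52 ± 0.10, adjusted p = 0.00997), and the kinase gene Syk (-0.66 ± 0.11). The Src family kinase gene Fgr was lower in Irf2 KO (-1.36 ± 0.13) and in Bcl6 cKO (-0.83 ± 0.13, adjusted p = 0.0101). In Bcl6 cKO, 2 of 15 were called, both lower, and the call of Fgr was lost without either Bcl6 cKO library or without wild type library 1. Tyrobp differed by -0.07 in Bcl6 cKO, where Pilrb1 and Pilrb2 were higher. In Nr4a1 KO, 4 of 15 were lower, including Lyn, Bcl10 and Plcg2. The Plcg2 call was lost when libraries were centred on their median, and the Lyn and Bcl10 calls without wild type library 2.

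The effectors of inhibitory receptors included 12 tested genes. In Irf2 KO, 4 were lower, among them Ptpn6, which encodes SHP-1 (-0.64 ± 0.09, adjusted p = 0.00350), and Inpp5d, which encodes the lipid phosphatase SHIP-1 (-0.52 ± 0.09), and 1 was higher. The higher gene was Dok2, an inhibitory adaptor, which was also the single effector called in Bcl6 cKO. It was at 5.86 and 5.45 log2 CPM in Bcl6 cKO, 5.04 and 5.43 in Irf2 KO and 4.47 and 4.24 in wild type (1.30 ± 0.21 in Bcl6 cKO, adjusted p = 0.0137, and 0.88 ± 0.21 in Irf2 KO, adjusted p = 0.0225). Both calls were lost when either wild type library was left out. In Nr4a1 KO its relative Dok1 was lower (-1.61 ± 0.16, adjusted p = 2.3e-04).

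On the ligand side 4 genes were tested. Cd47, the ligand of SIRP-alpha, was at 8.43 and 8.45 log2 CPM in Bcl6 cKO, 8.48 and 8.53 in Irf2 KO, 8.13 and 8.50 in Nr4a1 KO, and 7.88 and 7.95 in wild type. It was called higher in Bcl6 cKO (0.52 ± 0.12, adjusted p = 0.0439) and Irf2 KO (0.59 ± 0.12, adjusted p = 0.0120), calls that were lost when either wild type library was left out. Thbs1, a secreted ligand of CD47, was lower in Irf2 KO (-3.84 ± 0.53, adjusted p = 0.00304), at 0.66 and 0.66 log2 CPM there against 4.94 and 4.06 in the wild type.

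Among genes that make, attach or remove sialic acid, the sugar bound by PILR-alpha and the Siglecs, 18 were tested. The Bcl6 cKO had 1 call (5.56% of the 18, beside 5.01% of all tested genes). The Irf2 KO had 4 calls (22.2%, beside 21.6% of all genes). The Nr4a1 KO had 2 calls (11.1%, beside 15.1% of all genes). So the list was called about as often as all genes or less often, and this was not tested. St8sia4, which builds polysialic acid, was 0.53 ± 0.12 higher in Bcl6 cKO (adjusted p = 0.0390). Its difference in Nr4a1 KO was 0.59 ± 0.12 (adjusted p = 0.0103). In Irf2 KO the sialyltransferase genes St6gal1 (-1.79 ± 0.44), St3gal5 (-1.57 ± 0.37) and St3gal3 (-1.16 ± 0.27) were lower and Cmas, which activates sialic acid, was higher (0.53 ± 0.14, adjusted p = 0.0272). Each of these 4 calls was lost when single libraries were left out, as were both calls of St8sia4. St6galnac4, which adds sialic acid to O-glycans, was lower in Nr4a1 KO (-1.58 ± 0.34, adjusted p = 0.0163), a call lost without wild type library 2.

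Marker genes of other cells were read beside these results, since in bulk RNA fewer cells of a type and less RNA per cell cannot be told apart. All 10 classical monocyte markers were in the table, with a summed level of 36479 to 36640 CPM in Bcl6 cKO, 21138 to 25922 CPM in Irf2 KO, 38943 to 40515 CPM in Nr4a1 KO, and 33888 to 39034 CPM in wild type. In Irf2 KO, 5 of the 10 were lower, among them Lyz2, Cd14, Csf1r and Itgam. Fewer were called without Irf2 KO library 1, and the Cd14 and Itgam calls were also lost without a wild type library. Quantile normalization gives genes of the same rank the same value in each library. The Lyz2 difference of 0 under it therefore could not show whether its level differed. With each library centred on its median the Lyz2 difference was -0.94 log2 units. The summed level of 16 neutrophil markers was 3214 to 3764 CPM in Bcl6 cKO, 3921 to 5396 CPM in Irf2 KO, 4349 to 4994 CPM in Nr4a1 KO, and 4095 to 4117 CPM in wild type, with 1 higher and 3 lower in Bcl6 cKO and 3 higher and 7 lower in Irf2 KO. The number lower was 0 to 5 in Bcl6 cKO (lowest without Bcl6 cKO library 1) and 3 to 10 in Irf2 KO (lowest without wild type library 1) when single libraries were left out. The 3 higher in Irf2 KO were the granule protease and peroxidase genes Elane, Mpo and Prtn3 (0.85, 0.94 and 1.50 log2 units). These genes made up most of the summed level there, while 13 of the 16 were below wild type. Ly6g, the defining neutrophil marker, stayed between -0.80 and 1.99 log2 CPM over all libraries.

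Of 9 tested markers of Ly6C-low monocytes, 1 was lower in Bcl6 cKO, against 6 in Irf2 KO and 4 in Nr4a1 KO. The list includes Nr4a1 itself, called lower in Irf2 KO and Nr4a1 KO. In Nr4a1 KO it is the targeted gene, so its part in that count is set by the genotype. Without single libraries the number lower was 0 to 2 in Bcl6 cKO (lowest without Bcl6 cKO library 1), 5 to 6 in Irf2 KO and 1 to 4 in Nr4a1 KO (lowest without wild type library 2). Their summed level was 304 to 322 CPM in Bcl6 cKO, 199 to 235 CPM in Irf2 KO, 372 to 422 CPM in Nr4a1 KO, and 429 to 559 CPM in wild type. The 7 tested macrophage and dendritic cell markers summed to 207 to 216 CPM in Bcl6 cKO, 89 to 101 CPM in Irf2 KO, 236 to 247 CPM in Nr4a1 KO, and 218 to 231 CPM in wild type. Markers of plasmacytoid dendritic cells summed to 200 to 220 CPM in Bcl6 cKO, 395 to 470 CPM in Irf2 KO, 94 to 174 CPM in Nr4a1 KO, and 142 to 230 CPM in wild type. The Irf2 KO sum was mostly Bst2, at 8.45 and 8.70 log2 CPM in Irf2 KO and 6.39 and 7.30 in wild type, while Ly6d, at -3.14 and -5.19 in Irf2 KO and 2.59 and 2.44 in wild type, and Ccr9 (-1.76 ± 0.52) were called lower, and the median of the 4 tested was -1.01 log2 units. Erythroid markers summed to 6 to 13 CPM in Bcl6 cKO, 2 to 4 CPM in Irf2 KO, 8 to 12 CPM in Nr4a1 KO, and 21 to 22 CPM in wild type. So lower receptor levels in Irf2 KO stood beside lower levels of several marker lists, and the part of cell composition in them was not tested. In Bcl6 cKO the summed level of the neutrophil markers was lower than in wild type while the PILR genes and Cd33 were higher. Elane, the marker of that list with the highest level in Bcl6 cKO (10.37 and 10.17 log2 CPM), was itself 0.53 ± 0.13 log2 units higher there. The part of cell composition in the Bcl6 cKO levels was not tested either.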

How the data were processed

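The authors deposited a single table with log2 CPM per library and, per the file headers, their own test results (log2 fold change, p-value, adjusted p-value) per knockout. Per the labels' protocols, libraries came from 10 ng of total RNA made with a SMARTer Ultra Low kit. Per the submitters' processing notes, STAR, featureCounts of Subread, Salmon, bcl2fastq and limma were used with mm10, in no stated order. Of 13789 rows 45 repeats were left out. Undoing the log2 formula with 0.5 added to each read count gave whole reads for 100% of values (tolerance 0.01).

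A limma 3.58.1 model (R 4.3.3) of 4 group means over 8 libraries was fitted to the log2 CPM, with a variance trend (4 residual and 4.66 prior degrees of freedom), on the 12752 genes averaging 1 CPM or more. Calls needed an adjusted p under 0.05. The authors' p-values served only as an alternative. Positions and transcripts came from GENCODE for GRCm38, and promoters from RefSeq. Figures used matplotlib 3.10.9 under Python 3.11.15. Alternatives covered scaling, filters, the trend, limma-voom, the groups fitted, a replicate block, each library left out, and a GC and length correction that was added after seeing the data. The 9 members and all gene lists were chosen with earlier results of these data known. From each list outside the members, up to 4 called genes per comparison with the largest change were to be named. Not all of these are named, and others were named after their values were seen. So the genes named are not always those with the largest change. The fits were tested on simulated data. The values of 1 list gene are not reported here.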

Additional observations from a re-analysis of the deposited data

How the results depend on the processing

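Under 18 alternatives no member changed direction in Bcl6 cKO or Irf2 KO. In Nr4a1 KO, where none was called, Cd33 became -0.10 without Nr4a1 KO library 1, Siglece 0.06 without library 2, and Sirpa was above 0 under 4 alternatives (up to 0.20 after the GC and length correction). Of the 9 members in Nr4a1 KO, 0 to 1 were called when each library was left out in turn, and 0 under the others. The size of single members moved beyond the spread only without 1 library or after the GC and length correction, the larger shifts being given beside them (Sirpa, -1.10 in Irf2 KO, was then -0.82). In Bcl6 cKO, where 639 genes were called, 259 were called without the variance trend, 406 after the correction for GC content and length, and 33 to 917 when single libraries were left out. Of the 2755 calls in Irf2 KO, the correction left 1714, and 1076 to 3190 were made without single libraries. Of 1925 calls in Nr4a1 KO, 1054 were made when only the 2 groups compared were fitted, and 1065 to 1775 without single libraries. Among the relatives, signalling, ligand and sialic acid genes, the 5 calls in Bcl6 cKO became 0 without the trend, 14 with only the 2 groups, 3 with the correction and 10 in the authors' deposited table, and 0 to 10 without single libraries. Those in Irf2 KO (31) ranged over 19 to 35 and those in Nr4a1 KO (10) over 4 to 14. Such fits take the lone library left in a group to vary as the rest do.

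Centring each library on its median shifted the median difference by 0.07 (Bcl6 cKO), 0.10 (Irf2 KO) and 0.13 (Nr4a1 KO) log2 units, and quantile normalization by 0.06 (Bcl6 cKO), 0.07 (Irf2 KO) and 0.11 (Nr4a1 KO). After centring, the Bcl6 cKO had 256 higher and 373 lower calls (173 and 466 as deposited), the Irf2 KO 1666 and 1142 (1181 and 1574), and the Nr4a1 KO 1176 and 1145 (502 and 1423). Same-numbered libraries shared little (r of their deviations with those of wild type 0.03 for Bcl6 cKO, -0.003 for Irf2 KO, 0.18 for Nr4a1 KO), so the numbers were not taken to pair samples. With a replicate block 626 genes were called in the Bcl6 cKO, 2716 in the Irf2 KO and 1861 in the Nr4a1 KO, with 4 of the 9 members in Bcl6 cKO (Cd33 not called), 8 in Irf2 KO and 0 in Nr4a1 KO. Every member rested on at least 156 reads in every library.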
